A study of Homo sapiens with 4 samples.

Results

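AP-1 is a transcription factor built from pairs of Fos and Jun proteins. Some of its genes, FOS among them, belong with EGR1, IER2 and IER3 to the immediate early genes, which cells switch on within minutes of a growth signal. The 10 genes described here were found by their symbols in a gene table of 16834 genes: FOS, FOSB, FOSL1 and FOSL2 of the Fos family, JUN, JUNB and JUND of the Jun family, and EGR1, IER2 and IER3. All 10 were present. Cells labelled MIA PaCa-2, an established human pancreatic ductal adenocarcinoma (PDAC) line, served as control or received 1 µM neobractatin (NBT), a natural product, 5 µM trametinib, which inhibits the kinases MEK1 and MEK2, or both drugs together, each for 12 h. Each condition was sequenced as 1 library, so no value below has a replicate check, and every ratio compares libraries. The variation between cultures was not measured. Whether the control received a vehicle is not stated in the labels.

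Growth factor receptors signal through the kinases RAF, MEK and ERK, and ERK with its downstream kinases acts on factors such as ELK1, SRF and CREB at the promoters of FOS and EGR1. Fos proteins cannot pair with each other and need a Jun partner, whereas Jun proteins also pair among themselves, and both kinds are further controlled by phosphorylation and protein stability, which RNA does not show. The stress kinases JNK and p38 reach JUN and ATF proteins by a parallel route. In PDAC, FOSL1 is known as a gene that depends on ERK.

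The library sums ranged from 18776254 to 19614826 estimated reads, at which 3 reads equal 0.153 to 0.160 CPM (reads scaled to the library sum). All 10 genes exceeded that level in every library, and FOS in the trametinib library was the lowest with 14 reads. The cell line entries in the labels carry differing numbers, although all titles name MIA PaCa-2. MIA PaCa-2 is known for a loss of CDKN2A and its neighbour MTAP, for high vimentin and for little E-cadherin. In these libraries CDKN2A had 2643 to 3524 reads and MTAP 815 to 1151 reads, a pair of genes looked up after values were seen, while VIM (vimentin) stood at 11.5 to 26.4 TPM (a level scaled to transcript length and to the library), CDH1 (E-cadherin) at 51.2 to 86.9 TPM and EPCAM at 209 to 242 TPM. The libraries therefore lacked these known features of the line, and they are called by their treatment labels below. Of 10 markers of immune, endothelial, stromal, acinar and islet cells, 6 were present in the table, and the acinar and islet markers were not among them. These 6 added up to 99.2 to 140.92 TPM, of which CD68 alone made 91.89 to 139.24 TPM. CD3E, a T cell marker, was listed at 0 in control and NBT and had 55 and 29 reads with trametinib and with both drugs, and PTPRC, the pan-leukocyte marker, had 7.75 to 17.19 reads. Of the 6 markers, CD3E, VWF (3 reads in control, 25 with trametinib) and COL1A1 (45 and 98 reads) were called higher with trametinib, and CD3E alone with both drugs. Among the epithelial markers, KRT18 had 41334 reads in control, 38414 with NBT, 14162 with trametinib and 14049 with both drugs, and was called lower in the last 2. KRT8 and KRT7 were called lower with both drugs (-1.31 and -1.27), and VIM was called higher with trametinib (1.06) and with both drugs (1.24). The sources of these reads and their part in the values below were not tested. As a check of MEK inhibition, DUSP6, SPRY4 and ETV5, genes that ERK drives, had 329, 169 and 367 reads in the control library, 14, 14 and 16 with trametinib and 9, 16 and 23 with both drugs, and all 3 were called lower in both. With NBT alone they had 521, 295 and 777 reads, and ETV5 was called higher (log2 ratio 1.03).

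Promoters are shown for the 4 genes that together cover the motifs through which ERK, CREB and AP-1 itself are known to act on these genes. The RefSeq promoter table (GRCh38.p14) held 8 of the 10 genes. FOSL1 and IER3 were not among them. Each line gives the 250 bases before the annotated start, 5′ to 3′ on the gene's strand, with motif matches in capitals. The regions are chr5:138465229-138465478 (plus strand) for EGR1, chr14:75278578-75278827 (plus) for FOS, chr19:45467746-45467995 (plus) for FOSB and chr1:58784048-58784297 (minus) for JUN.
EGR1: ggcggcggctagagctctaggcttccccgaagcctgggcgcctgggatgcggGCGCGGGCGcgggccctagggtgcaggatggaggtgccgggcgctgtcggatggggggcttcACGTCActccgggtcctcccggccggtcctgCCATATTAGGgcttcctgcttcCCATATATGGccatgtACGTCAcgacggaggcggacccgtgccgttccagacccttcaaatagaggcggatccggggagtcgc
FOS: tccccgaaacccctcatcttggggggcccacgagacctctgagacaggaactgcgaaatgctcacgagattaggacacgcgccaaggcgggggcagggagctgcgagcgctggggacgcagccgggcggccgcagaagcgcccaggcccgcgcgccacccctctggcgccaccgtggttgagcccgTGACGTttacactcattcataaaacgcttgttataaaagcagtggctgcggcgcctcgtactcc
FOSB: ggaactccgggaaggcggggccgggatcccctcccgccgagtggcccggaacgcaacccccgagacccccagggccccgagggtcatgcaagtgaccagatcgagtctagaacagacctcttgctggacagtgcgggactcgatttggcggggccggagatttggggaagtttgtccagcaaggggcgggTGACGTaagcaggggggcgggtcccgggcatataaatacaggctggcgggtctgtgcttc
JUN: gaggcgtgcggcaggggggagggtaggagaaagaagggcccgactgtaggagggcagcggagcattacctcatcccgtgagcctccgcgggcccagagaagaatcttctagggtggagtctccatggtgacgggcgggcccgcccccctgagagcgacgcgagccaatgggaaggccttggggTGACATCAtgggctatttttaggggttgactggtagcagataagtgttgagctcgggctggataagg

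The motifs were searched on both strands: the CArG box bound by SRF, TGANTCA (the AP-1 site), TGACNTCA (its longer form), TGACGT (the core of the CREB and ATF site) and GCGNGGGCG (the EGR site). In EGR1 the capitals mark CArG boxes CCATATTAGG, at positions -105 to -96 counted from the start, and CCATATATGG, at -83 to -74, besides ACGTCA, which is TGACGT read on the other strand, and GCGCGGGCG. EGR1 was the 1 gene of the 8 with a CArG box in this window, which 1.16% of all 35116 promoters held. Bases farther upstream were not searched, so a gene without a match here may hold the motif there. TGACGT was present in 5 of the 8, namely FOS, FOSB, FOSL2, JUND and EGR1, against 7.10% of all promoters, and it lay at -64 to -59 in FOS and -60 to -55 in FOSB. TGACNTCA was found in JUN, as TGACATCA at -67 to -60, and in JUND, as TGACGTCA, which overlaps TGACGT, against 6.87% of all promoters. TGANTCA had no match in the 8 windows and was held by 6.57% of all promoters, and GCGNGGGCG matched in EGR1 alone of the 8, against 8.41%. These matches describe letters in a window and no binding was measured.

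Trametinib alone was the condition in which most of these genes differed from the control. Of the 10, 5 were called lower (FOS, FOSB, FOSL1, EGR1 and IER3) where 2.15% of all tested genes were, and 0 were called higher, against 3.82%. A gene was called when an exact binomial test of the counts of both libraries, Benjamini-Hochberg adjusted over all genes tested, passed 0.05 and the log2 ratio reached 1 in size. With NBT alone 0 of the 10 were called in either direction, against 1.6% of all genes higher and 1.01% lower. With both drugs, 3 were called lower than in control (FOSL1, EGR1 and IER3), against 3.69%, and 0 higher, against 4.73%. The median log2 ratio of the 10 genes against control was -0.08 with NBT, -1.06 with trametinib and -0.11 with both drugs, beside -0.01, 0.08 and 0.05 over all genes tested. These 3 comparisons share the control library.

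**Figure D1:**
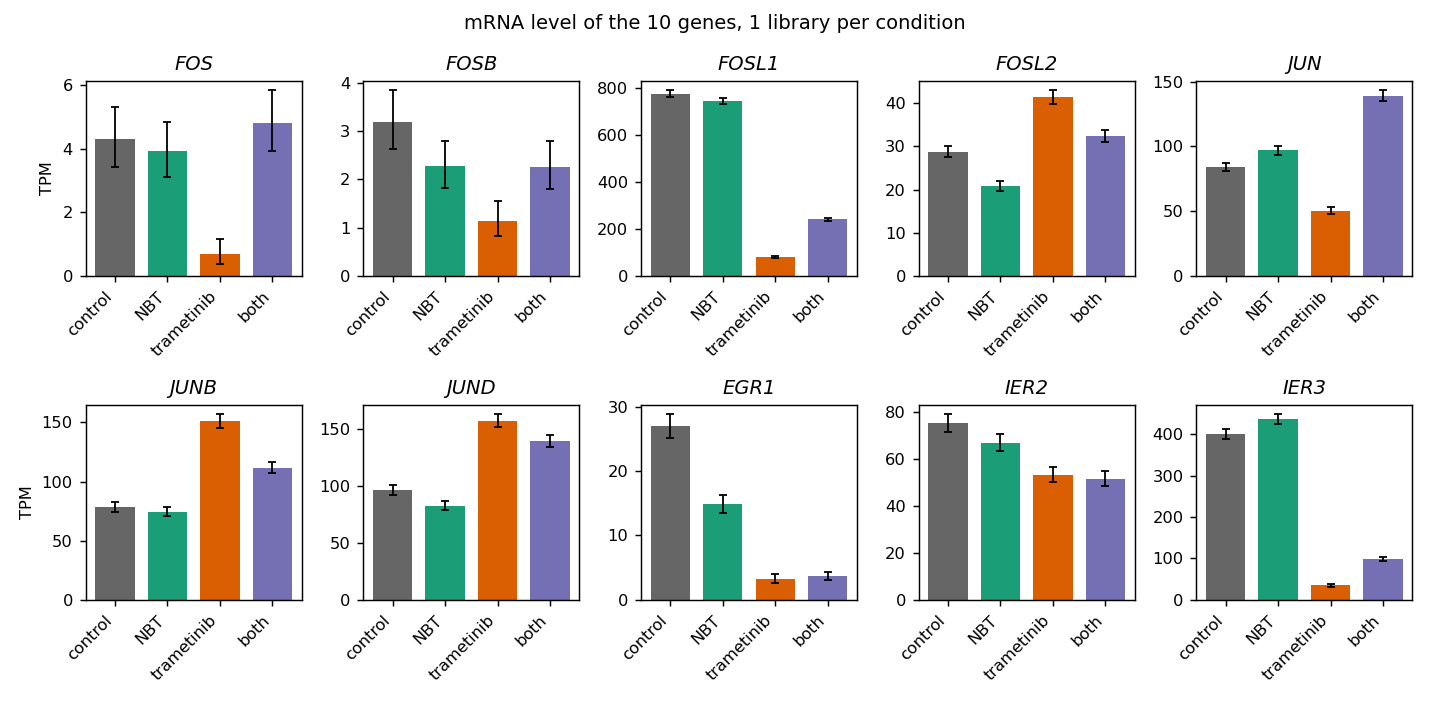
Levels of the 10 genes in TPM (linear axis, 1 panel per gene) in the control, NBT, trametinib and combination libraries, 1 library each, with error bars for 95% exact counting intervals. FOSL1 and IER3 stand highest in control, at 777.65 and 400.28 TPM, and FOS and FOSB lowest, at 4.29 and 3.19 TPM.

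FOSL1, which encodes FRA-1, was by far the most abundant of the 10 in control and in NBT. It had 11889 reads in control, 12386 with NBT, 1268 with trametinib and 4000 with both drugs, or 777.65, 745.69, 80.30 and 242.20 TPM. By TPM it ranked 153 of 16834 genes in control and 2080 with trametinib. The level with trametinib was 9.46-fold lower than in control (log2 ratio -3.24, 95% counting interval -3.33 to -3.16), and with both drugs it stood between these, at a log2 ratio of -1.63 (-1.69 to -1.58). The NBT and control libraries could not be told apart in FOSL1 (0.01, -0.03 to 0.05).

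FOS, the founding member of the family, was low throughout, with 85 reads in control, 84 with NBT, 14 with trametinib and 102 with both drugs (4.29, 3.91, 0.69 and 4.80 TPM). Only the trametinib library stood apart, 5.95-fold under control (log2 ratio -2.57, -3.55 to -1.79). The combination library was not below control, at a log2 ratio of 0.20 (-0.23 to 0.63), and the order combination, control, NBT held no neighbouring pair that differed beyond counting error. FOSB, a paralog that follows similar signals, showed 111, 88, 42 and 87 reads in the same order of libraries (3.19, 2.27, 1.15 and 2.26 TPM). Trametinib lay 2.65-fold below control in FOSB (log2 ratio -1.40, -1.96 to -0.89), and the control, NBT and combination libraries lay within counting error of their neighbours in the order. With these low counts the FOS and FOSB ratios are the least precise of the 10.

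FOSL2, which encodes FRA-2, was above control with trametinib, where its paralogs were below, and was not called in any comparison. It had 1840 reads in control, 1416 with NBT, 2680 with trametinib and 2227 with both drugs (28.75, 20.86, 41.39 and 32.48 TPM). The log2 ratios against control were -0.43 with NBT (-0.53 to -0.33), 0.53 with trametinib (0.44 to 0.62) and 0.21 with both drugs (0.12 to 0.30). All 4 libraries differed beyond counting error, with trametinib highest and NBT lowest.

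In the Jun family, no gene was called against control in any of the 3 treated libraries. Per direction and library, 1.01% to 4.73% of all tested genes were called. JUN, the classical partner of FOS, had 2598 reads in control, 3255 with NBT, 1604 with trametinib and 4619 with both drugs (83.96, 97.05, 50.47 and 139.14 TPM). Trametinib was thus the lowest library for JUN, at a log2 ratio of -0.71 (-0.80 to -0.62), and the combination the highest, at 0.77 (0.70 to 0.84), with NBT at 0.28 (0.20 to 0.35). JUNB, which often restrains JUN, had 1347, 1391, 2670 and 2059 reads (78.41, 74.71, 151.31 and 111.72 TPM), and its log2 ratio with trametinib, 0.97 (0.88 to 1.07), lay just under the limit for a call. JUND, the member least tied to acute stimulation, had 1754, 1628, 2938 and 2726 reads (96.72, 82.83, 157.73 and 140.12 TPM), with log2 ratios of 0.73 (0.65 to 0.82) for trametinib and 0.57 (0.49 to 0.66) for both drugs. JUNB and JUND were therefore highest in the library in which JUN was lowest.

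Summed over the family, Fos TPM went from 813.88 in control and 772.73 with NBT to 123.53 with trametinib and 281.74 with both drugs. Jun TPM was 259.09, 254.59, 359.51 and 390.98 in the same libraries. Fos transcripts thus outnumbered Jun transcripts 3.14 to 1 in control (95% counting interval 3.04 to 3.24) and 3.04 to 1 with NBT, while the ratio was 0.344 with trametinib (0.329 to 0.359) and 0.721 with both drugs (0.696 to 0.746). The make-up of the Fos pool also differed: FOSL1 gave 95.5% of it in control, 65.0% with trametinib and 86.0% with both drugs, and FOSL2 gave 3.53%, 33.5% and 11.5%. JUN made up 32.4% of the Jun pool in control, 38.1% with NBT, 14.0% with trametinib and 35.6% with both drugs. These are transcript ratios and say nothing of the amounts of protein or of dimers.

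**Figure D2:**
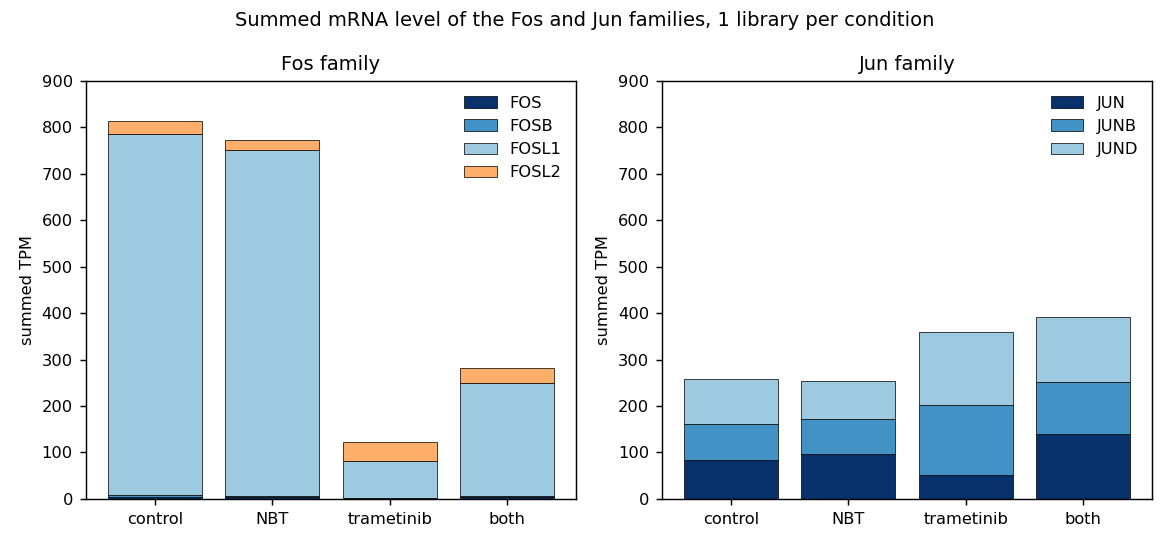
Summed TPM of the 4 Fos genes and the 3 Jun genes in each library, stacked by gene, 1 library per condition. The Fos stack is mostly FOSL1 in control and NBT, at 813.88 and 772.73 TPM in all, and lies under the Jun stack with trametinib, at 123.53 against 359.51 TPM.

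EGR1, a zinc finger factor that responds to ERK through SRF, stood far below control both with trametinib and with both drugs, and these libraries could not be told apart in it. Its promoter holds the CArG boxes printed earlier, whose part in these levels was not tested. It had 802 reads in control, 479 with NBT, 99 with trametinib and 117 with both drugs (26.92, 14.84, 3.24 and 3.66 TPM). The log2 ratio was -3.03 with trametinib (-3.35 to -2.73), an 8.14-fold lower level, and -2.83 with both drugs (-3.13 to -2.56). With NBT it was -0.79 (-0.96 to -0.63), the value farthest from 0 among the 10 genes in that library, though not a call. IER3, which has been linked to cell survival and to the feedback on ERK, had 4587, 5422, 410 and 1214 reads (400.28, 436.56, 34.83 and 98.75 TPM). Its log2 ratio of -3.50 with trametinib (-3.65 to -3.35), 11.3-fold below control, was the lowest of the 10, and with both drugs it was -1.98 (-2.07 to -1.89). IER2, a small nuclear protein gene, varied least of the 3, with 1494, 1441, 1087 and 1099 reads (75.15, 66.88, 53.23 and 51.53 TPM) and log2 ratios of -0.10, -0.47 and -0.51 for NBT, trametinib and both drugs. In IER2 the libraries without trametinib differed from each other by no more than counting error, and so did those with it.

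**Figure D3:**
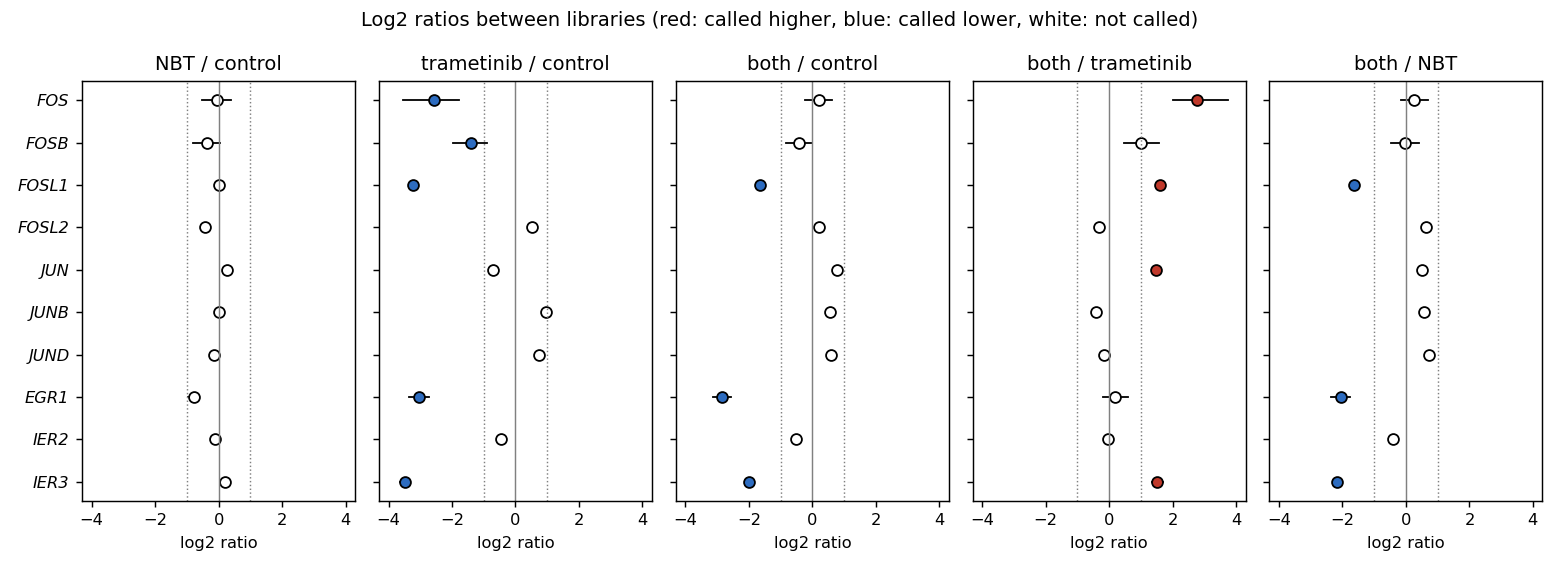
Log2 ratios of the 10 genes for each of the 5 pairs of libraries, with 95% counting intervals and dotted lines at the limit of 1 in either direction. Red and blue points are called higher and lower, white points are not called; with trametinib against control 5 genes are blue, and with the combination against trametinib 4 are red.

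Whether NBT alters these genes once MEK is inhibited was read from the combination and trametinib libraries. FOS, FOSL1, JUN and IER3 were called higher with both drugs than with trametinib alone, 4 of 10 against 2.56% of all genes tested, and 0 of 10 were called lower, against 3.55%. The levels were 6.83-fold higher for FOS (log2 ratio 2.77, 2.0 to 3.74), 3.05-fold for FOSL1 (1.61, 1.52 to 1.70), 2.86-fold for IER3 (1.52, 1.35 to 1.68) and 2.78-fold for JUN (1.48, 1.39 to 1.56). FOSB lay at 0.99 (0.45 to 1.57), just short of the limit, and EGR1 at 0.19 (-0.21 to 0.59). FOSL2, JUNB, JUND and IER2 had log2 ratios of -0.32, -0.42, -0.16 and -0.03. The median was 0.59 over the 10 genes and -0.05 over all genes tested. Of the 4 called genes, FOS with both drugs lay within counting error of control and JUN above it, whereas FOSL1 and IER3 lay below it.

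What trametinib added to NBT was read from the combination and NBT libraries. FOSL1 (-1.64, -1.70 to -1.59), EGR1 (-2.04, -2.35 to -1.75) and IER3 (-2.17, -2.26 to -2.08) were called lower with both drugs, 3 of 10 against 1.99% of all genes, and 0 were called higher, against 2.38%. JUN had a log2 ratio of 0.49 (0.43 to 0.56) here, against -0.71 for trametinib without NBT. FOS and FOSB, at 0.27 and -0.03, lacked in the presence of NBT the difference that trametinib made on its own. No replicates exist with which to test the difference between these effects.

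The combination was also set against the sum of the log2 ratios of the single drugs. It exceeded that sum by at least 1 in 5 of the 10 genes, against 0.897% of the 11367 genes with at least 50 reads in a library, and fell short of it by at least 1 in 0, against 1.43%. The excess was 2.84 for FOS (1.93 to 3.74), 1.60 for FOSL1 (1.50 to 1.70), 1.38 for FOSB (0.71 to 2.04), 1.32 for IER3 (1.15 to 1.49) and 1.2 for JUN (1.09 to 1.31). EGR1 lay just inside the limit at 0.98 (0.56 to 1.40), where its singles summed to -3.82 and the combination stood at -2.83. For JUND, IER2 and FOSL2 the difference was within counting error of 0, at -0.00, 0.07 and 0.11, and JUNB was the 1 gene below its sum beyond counting error, at -0.42 (-0.56 to -0.28). The median was 1.09 for the 10 genes and -0.03 for all. These differences use the same 4 libraries as the ratios above and are no separate evidence.

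**Figure D4:**
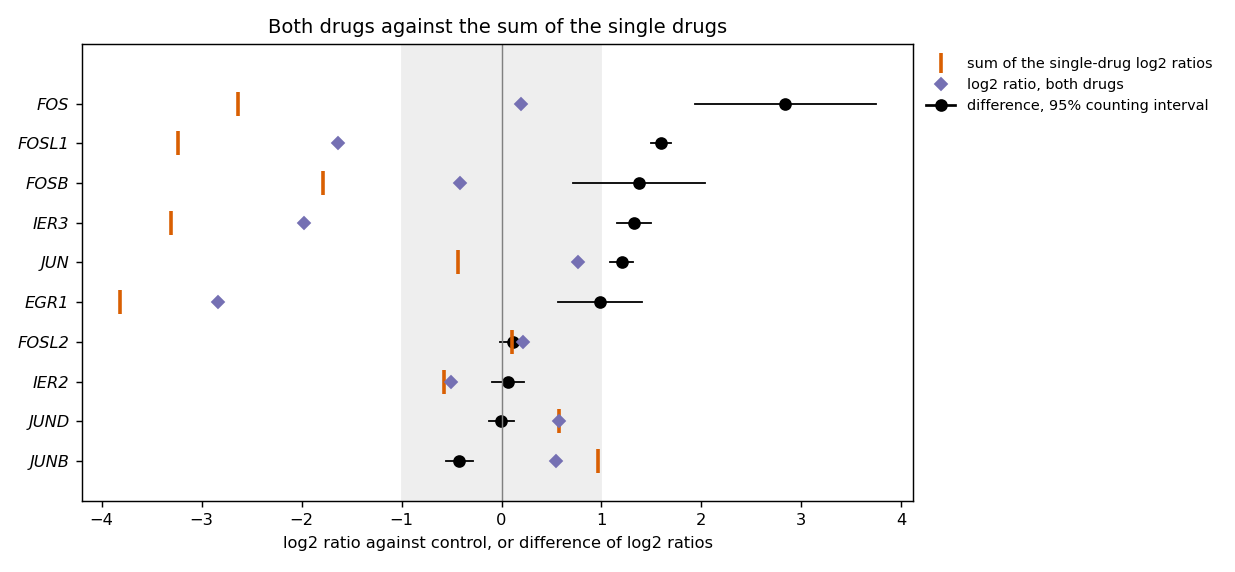
For each gene, the sum of the single-drug log2 ratios (orange tick), the log2 ratio of the combination (purple diamond) and their difference with its 95% counting interval (black), with a grey band for differences under 1 in size. FOS, FOSL1, FOSB, IER3 and JUN lie above the band, from 1.2 to 2.84, and no gene lies below it.

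At the transcript level, the assignment of reads differed between libraries in FOSB, FOSL1 and FOSL2. The RefSeq transcript for full-length FosB (NM_006732.3) held 0.49 of its 111 estimated reads in control, 69 of 88 with NBT, 26.61 of 42 with trametinib and 87 of 87 with both drugs. The transcript for the shorter ΔFosB (NM_001114171.2), which lacks the transactivating C terminus, held 77.52, 19, 0 and 0 reads, and a predicted model (XM_005258691.1) held the remaining 32.99, 0, 15.39 and 0. These models share most of their bases, and the split of so few reads between them is an estimate with no error given. In FOSL1, whose reads were divided among 5 transcripts, NM_005438.5 led in every library with 60.2%, 66.7%, 49.6% and 61.8% of the gene's TPM. NM_001300857.2 held 1357, 1575, 0.20 and 341 reads of FOSL1, so it was near 0 with trametinib alone. In FOSL2 the predicted model XM_006711976.3 held 135.71, 0, 116.7 and 0 reads, and NM_005253.4 held 89.6% to 98.8% of the gene's TPM. The error of these splits is not given either. The 2 transcripts of JUND carried identical values, and FOS, JUN, JUNB, EGR1, IER2 and IER3 had 1 transcript each.

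In the RefSeq annotation of GRCh38.p14, FOSB, JUNB, JUND and IER2 lie on chromosome 19 and the others on chromosomes 1, 2, 5, 6, 11 and 14. FOSL1 spans chr11:65892049-65900545 on the minus strand, IER3 chr6:30743199-30744547 on the minus strand, EGR1 chr5:138465479-138469303 on the plus strand and FOSL2 chr2:28392858-28417317 on the plus strand. JUNB, at chr19:12791486-12793315, shares exonic bases with HOOK2 on the opposite strand, and IER2 and IER3 overlap antisense genes in GENCODE. Whether the counting used strand is not given in the sources used here, so reads from these overlaps cannot be told apart.

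The other proteins that pair with Fos and Jun were counted next. Of 7 such genes, JDP2 and BATF2 were called higher with NBT, and ATF3 and JDP2 were called higher with trametinib and with both drugs, where 1.6%, 3.82% and 4.73% of all genes were. ATF3, a stress-responsive ATF family member, had 718 reads in control, 1405 with NBT, 2329 with trametinib and 6091 with both drugs, a log2 ratio of 3.02 for the combination. ATF3 therefore was highest with both drugs, as JUN was, and unlike JUN it stood above control with trametinib alone. JDP2, a repressor that binds JUN, had 182, 391, 702 and 479 reads (1.33 for the combination). Over the 6 of these genes with a mean of at least 10 reads, the median log2 ratio was 0.87, 0.75 and 0.38 with NBT, trametinib and both drugs, beside -0.00, 0.07 and 0.03 for the 12897 genes with such a mean.

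Among 18 other immediate early genes, ATF3 included, 0 were called with NBT, 2 higher and 4 lower with trametinib, and 4 higher and 3 lower with both drugs. Over all genes the shares were 1.6% higher and 1.01% lower with NBT, 3.82% and 2.15% with trametinib, and 4.73% and 3.69% with both drugs. The list thus moved in both directions and its median over the 15 genes with enough reads was 0.21, -0.30 and -0.26. DUSP1, a phosphatase that acts on JNK and p38, had 270 reads in control, 431 with NBT, 192 with trametinib and 848 with both drugs (1.59). PHLDA1 had 4113, 5448, 420 and 662 reads (-2.70 with both drugs) and CCN2, a matricellular protein gene and YAP target, had 163, 195, 55 and 36 (-2.23). DUSP1 resembled JUN in being lowest with trametinib and highest with both drugs, while PHLDA1 resembled EGR1 in staying far below control in both.

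Of 17 genes for kinases and factors upstream, ELK3 alone was called against control, lower with trametinib and with both drugs, where 2.15% and 3.69% of all genes were. ELK3, an SRF partner, had 1603 reads in control, 1862 with NBT, 624 with trametinib and 804 with both drugs (-1.06). The medians of the list were -0.19, 0.08 and -0.18, so the RNA of these regulators, SRF, ELK1 and CREB1 among them, stayed within the limit in the 3 treated libraries except for ELK3.

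Textbook targets of AP-1 were mostly lower with trametinib: 11 of 16 tested were called lower and 1 higher, against 5 lower and 2 higher of 17 with both drugs, and 1 lower and 3 higher of 16 with NBT. Over all genes 2.15% were called lower and 3.82% higher with trametinib, 3.69% and 4.73% with both drugs, and 1.01% and 1.6% with NBT. Between the combination and trametinib libraries, 7 of 17 were called higher and 1 lower, where 2.56% and 3.55% of all genes were. The median over 15 genes with enough reads was 0.09 with NBT, -1.35 with trametinib and -0.60 with both drugs. CCND1, which encodes cyclin D1, had 8472 reads in control, 4693 with NBT, 1315 with trametinib and 323 with both drugs (-4.77), and PLAU, the urokinase gene, had 4196, 4393, 1398 and 862 (-2.35). Between the combination and trametinib libraries CCND1 was called lower (-2.07) and PLAU was not (-0.75), where FOSL1 was called higher. The collagenase gene MMP13, with 40, 44, 157 and 116 reads (1.46), and the stromelysin gene MMP3, with 10, 153, 20 and 107 (3.29), were the called rises with both drugs. Many of these targets also answer to other factors, and AP-1 binding was not measured.

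**Figure D5:**
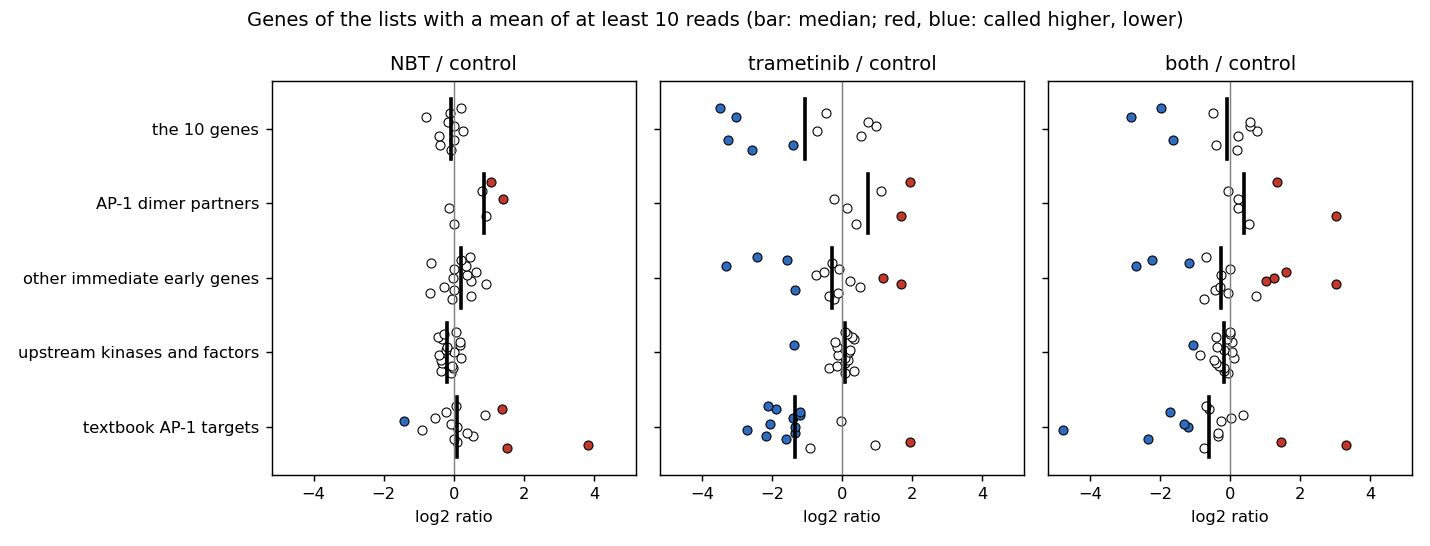
Log2 ratios against control for genes with a mean of at least 10 reads in the 10 genes and the 4 lists, 1 point per gene (red called higher, blue called lower, white not called) and a bar at the median, for NBT, trametinib and both drugs. With trametinib the medians of the 10 genes and of the AP-1 targets lie at -1.06 and -1.35, and that of the upstream kinases and factors at 0.08.

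The genes most like FOSL1, EGR1 and FOS were named by the Euclidean distance between their 3 log2 ratios against control, over the 4 libraries and genes with at least 100 reads in one of them. IER3 was nearest to FOSL1 (distance 0.466), followed by B3GALT5 (0.471) and PLK3 (0.504). PRRG3 (0.480), SOX9 (0.604) and PTGES (0.653) were nearest to EGR1. SULT1A4 (0.684), which has near-identical copies whose reads may be split, GPAT3 (0.806) and PLAUR (0.931) were nearest to FOS. IER3 is itself among the 10 genes, and the nearest neighbours of FOS lay farther off than those of FOSL1.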

How the data were processed

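RNA of 4 libraries, 1 per condition, was sequenced, and the deposited gene and transcript tables were used. The authors gave for each gene and library an estimated count without normalization, TPM and FPKM; the submitters' processing notes name Bowtie2 2.2.5, RSEM 1.2.8 and hg38. Estimated counts of genes with several transcripts or shared reads need not be whole, as was so for 53.9% of genes in at least 1 library and for 0 of the 10 genes described.

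Estimated counts were rounded and scaled to library sums, which after rounding were 18776212 to 19614763. Log2 ratios used 0.5 added reads. Libraries were compared in 5 pairs by a binomial test (exact, two-sided), the Poisson model named in the study's methods, adjusted by Benjamini-Hochberg over all genes counted at least 1 time in the pair; calls needed an adjusted value of at most 0.05 and a log2 ratio of at least 1 in size. No p-value is printed, because it would describe a pair of libraries and not the conditions. Ratio intervals are 95% Clopper-Pearson intervals, those of levels are exact Poisson intervals and those of differences from additivity and of family ratios are normal approximations. All intervals cover counting error only and treat each read as independent, so PCR copies among the reads would make them too narrow. TPM served comparisons between genes. FPKM served only as an alternative for the family sums.

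Members and gene lists were chosen with earlier results of these data known. The text names all 10 genes, from each list the 2 largest called rises and falls with both drugs among genes with at least 100 reads, and the 3 nearest genes of FOSL1, EGR1 and FOS. BATF2, CDKN2A and MTAP and comparisons of list genes with JUN, EGR1 or FOSL1 were added after values were seen. The alternatives were edgeR TMM and DESeq2 median-of-ratios scaling, deposited TPM with pseudocounts of 0.1 and 1, 5 added reads, a limit of 10 counts, summed transcripts, negative binomial tests in edgeR (coefficient of variation set to 0.2 or 0.4), a log2 limit without a test, and a log2 limit of 2. The steps were tested on simulated libraries with counting error only, with changes set in genes with a mean of at least 100 reads. That test therefore did not cover variation between cultures or changes in genes with low counts. Software was Python 3.11.15 with numpy 2.4.6, scipy 1.17.1, pandas 2.3.3 and matplotlib 3.10.9, and R 4.3.3 with edgeR 4.0.16 and DESeq2 1.42.0.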

Additional observations from a re-analysis of the deposited data

Results flagged for a closer look

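JUN differed with trametinib in opposite directions without and with NBT, and was the 1 gene of the 10 for which these directions were opposite with both counting intervals leaving out 0. Without NBT its log2 ratio was -0.71 (trametinib against control), and with NBT it was 0.49 (combination against NBT). Each condition is 1 library, so the difference between these values was not tested. The ranges over the alternatives were -0.78 to -0.71 and 0.46 to 0.52.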

How the results depend on the processing

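With edgeR's negative binomial test at an assumed coefficient of variation of 0.4, 0 genes were called lower with trametinib or both drugs against control or with both drugs against NBT, and 0 higher with both drugs against trametinib. With a log2 limit of 2, 1 gene was called lower with both drugs against control and 1 higher with both drugs against trametinib. The other counts of called genes stayed within 1.5 times their value. Genes called lower with trametinib against control numbered 4 at a coefficient of variation of 0.2 and at a log2 limit of 2. FOSB lost its call with trametinib at a TPM pseudocount of 1 (-0.96), and passed the limit for both drugs against trametinib with TMM (1.04) and median-of-ratios scaling (1.02). Each log2 ratio was recomputed under each alternative, and 345 of the other values so obtained kept their side of the limit. Some of these left their counting intervals at a TPM pseudocount of 1. FOS then stood at -1.65 with trametinib against control and at 1.78 with both drugs against trametinib. Against control, EGR1 stood at -2.72 with trametinib and IER3 at 0.12 with NBT. That IER3 ratio was outside its interval at a TPM pseudocount of 0.1 as well (0.125). A further 2 values (FOSL1 with NBT against control, -0.06 at either TPM pseudocount) were classed as moved. The excess of FOS over additivity was also classed as moved (1.89 at a TPM pseudocount of 1, and 1.89 to 2.88 over all alternatives). Genes exceeding the sum of the single drugs by at least 1 numbered 6 with TMM, median-of-ratios scaling or a TPM pseudocount of 0.1. EGR1 passed the limit there (1.02 to 1.03). At a TPM pseudocount of 1 they numbered 4, and FOSB fell under the limit (0.96). The sign of ratios near 0 depended on scaling for FOSL1 and JUNB with NBT against control and IER2 with both drugs against trametinib. No paired analysis was possible because each condition has 1 library. Variation between cultures was not measured, so its size beside the counting error is not known. Counting error was widest for ratios with FOS and FOSB, whose counts were 14 to 111, and for EGR1 between the combination and trametinib libraries, with 117 and 99 reads.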
